A study of Mus musculus with 10 samples.

Results

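The immediate early genes Fos, Jun, Junb, Egr1, Atf3, Ier2, Btg2, Klf2, Klf4 and Zfp36 were followed in the gastrocnemius (GAS) of obese mice, and were taken by name, by a rule that uses no measured value. They are 10 of the 21160 genes or unmatched segments in the count table, and 7 of them are among the 7819 that passed the filter on low counts and were tested. Of these 7, Egr1 was lower in mice treated with an antisense oligonucleotide (ASO) against miR-22 in edgeR's test, and no other member passed that test in either direction. The Egr1 call was kept in 13 of 19 alternative fits, and an exact permutation test, two-sided, gave p = 0.087. The levels differed widely between mice of the same group, with CTRL 1 the lowest control and ASO 4 the highest treated library for 5 of the 7 tested members each. Jun, Atf3 and Zfp36 could not be measured in these files.

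The study asked how inhibition of miR-22 changes skeletal muscle in diet-induced obesity (DIO), and sequenced mRNA of GAS from wild-type (WT) male C57BL/6J mice, 30 weeks old by the series description although the periods in the protocols add up to more. All mice ate a high fat diet, which began 9 weeks before treatment and went on throughout, and no lean group was used here. The treated mice (ASO, n = 5) received RES-010, an unconjugated LNA oligonucleotide against miR-22, at 10 mg/kg under the skin every week for 14 weeks, and the control mice (CTRL, n = 5) received saline (VHL). The control is thus a vehicle and not an oligonucleotide of another sequence, so the presence of an oligonucleotide and the loss of miR-22 cannot be told apart. Muscles were taken after blood was drawn from the heart under isoflurane and the neck was dislocated, and the methods describe dissection and freezing as immediate.

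Immediate early genes are transcribed within minutes of a stimulus, without new protein synthesis, by factors that already sit in the cell. Kinases of the MAP kinase family and calcium signals act on serum response factor (Srf) with its Elk partners and on Creb1, and the resulting mRNAs are short-lived because AU-rich elements in their 3′UTRs attract proteins that remove the poly(A) tail. In skeletal muscle, contraction is a known inducer of Fos, Egr1 and their relatives. Fos, Jun, Junb and Atf3 are leucine zipper proteins of the AP-1 group, Egr1, Klf2 and Klf4 are zinc finger transcription factors, Ier2 is a nuclear protein, Btg2 restrains proliferation and binds the deadenylase Caf1, and Zfp36 (tristetraprolin) binds AU-rich elements.

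The sequences below show the oligonucleotide's target and a motif of AU-rich elements in several of these mRNAs, whose decay was not measured. Mature mmu-miR-22-3p lies at chr11:75463772-75463793 on the plus strand (RefSeq, GRCm38.p6), and its seed, bases 2 to 8, is in capitals. In the windows of 30 bases below it, read from GRCm39 in the sense of the mRNA, the pentamer ATTTA of AU-rich elements is in capitals. The windows lie in the 3′UTR, at chr12:85523874-85523903 on the plus strand for Fos, and on the minus strand at chr8:85703756-85703785 for Junb, chr4:55527258-55527287 for Klf4, chr4:94937444-94937473 for Jun, chr1:190902535-190902564 for Atf3 and chr7:28076383-28076412 for Zfp36.
mmu-miR-22-3p: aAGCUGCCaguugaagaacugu
Fos: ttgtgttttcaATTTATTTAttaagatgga
Junb: aatatatttgtgtATTTAacagggagggga
Klf4: atatgtaatataaATTTAagcaaacttcta
Jun: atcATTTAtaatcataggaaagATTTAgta
Atf3: gaaaatattacttATTTAtcccagtattcc
Zfp36: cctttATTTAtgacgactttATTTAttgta

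The heptamer GGCAGCT, which pairs with the miR-22 seed, was sought on the mRNA strand in the whole annotated 3′UTR of the 10 members and had 0 matches. It is present in 16.1% of the 3′UTRs of 21097 genes, whose median length is 1325 bases. The 3′UTRs of the members are shorter, from 485 bases in Junb to 1233 in Jun, except Btg2 with 2199. The share was not matched for length, so the 0 matches cannot be read as a depletion. ATTTA, counted with overlaps on the mRNA strand, had 4 matches in the last 500 bases of Fos, 3 each in Jun and Zfp36, 2 each in Junb and Egr1, 1 each in Klf4 and Atf3, and 0 in Btg2, Klf2 and Ier2. Over the whole annotated 3′UTR, Btg2 had 5 matches, Jun 4, Atf3 3 and Klf2 1. The other members had no further match there, and the share over all genes was not counted. In the table, 55.5% of the 28349 segments of 500 bp hold at least 1 ATTTA and 11.2% hold at least 3. The nonamer TTATTTATT, which contains ATTTA, was found in Fos and Zfp36 and is in 3.20% of those segments.

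Promoter sequence, from 250 bases before to 50 after the start in the RefSeq table on GRCm38.p6, was at hand for 8 of the 10 members, Egr1 and Ier2 not being in the table. The full cAMP response element TGACGTCA was found on either strand in Btg2 alone, 166 bases before the start. It lies in the window chr1:134079303-134079332 on the minus strand, and is in 1.79% of 32851 promoters. A shorter part of this element had 2 matches each in Fos and Btg2, and 1 each in Atf3, Junb, Klf2 and Klf4. This part had 0 matches in Jun and Zfp36, and is in 20.8% of the same promoters. Whether the members hold it more often than other promoters was not tested. A CArG box, the binding motif of Srf, was found on either strand in Zfp36 alone, 58 bases before the start in the window chr7:28379267-28379296 on the minus strand, and is in 1.63% of promoters. The full element in Btg2 and the CArG box in Zfp36, in capitals below, are descriptions of the letters in these windows. Sequence farther from the start was not searched, so a member without a match here can still hold any of these motifs.
Btg2: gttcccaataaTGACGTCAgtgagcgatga
Zfp36: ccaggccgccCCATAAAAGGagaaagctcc

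The table counts read pairs on the last 500 bp of each transcript's 3′UTR, so each member is read through a single short stretch. On GRCm39 these are chr18:34997538-34998037 on the plus strand for Egr1, chr12:85523548-85524047 on the plus strand for Fos, chr8:73075001-73075500 on the plus strand for Klf2, and, on the minus strand, chr1:134002908-134003407 for Btg2, chr4:55527143-55527642 for Klf4, chr8:85387960-85388459 for Ier2 and chr8:85703539-85704023 for Junb. The Junb segment is its whole 3′UTR of 485 bp, and 77 bp of it overlap an exon of Gm65321 on the opposite strand. Library totals lay between 2239186 and 2632560 counts with the ASO and between 1606909 and 2116720 in CTRL, so all treated libraries were deeper. Levels are given as CPM, the counts relative to the library's counts on the tested genes, scaled by TMM, and errors are SDs over the 5 libraries of a group. CTRL 3 stood apart, with a summed adipocyte marker level of 13300 CPM against 846 to 2330 CPM in the other controls and the lowest sum of skeletal muscle fiber markers of all libraries, 45700 CPM. Calls lost when it was left out are named where they are given or at the end.

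Among the AP-1 members, Fos, the partner of Jun in the classical AP-1 dimer, was at 27.8, 117, 219, 132 and 104 CPM in CTRL 1 to 5. In ASO 1 to 5 it was at 29, 37.4, 66.8, 161 and 47.2 CPM. The groups overlapped over nearly their whole range, with CTRL 1 below every treated library and ASO 4 above every control library but CTRL 3. On average Fos was at 120 ± 68.5 CPM in CTRL and at 68.3 ± 53.8 CPM in treated mice (SD, n = 5 per group). The log2 fold change of −0.81 (SE 0.51, 95% interval −1.93 to 0.31) did not pass the threshold in edgeR's quasi-likelihood test, adjusted by Benjamini-Hochberg (adjusted p = 0.26), and an exact permutation test, two-sided, gave p = 0.23. Without ASO 4 the log2 fold change of Fos was −1.40, with an adjusted p of 0.037 in edgeR's test, while without CTRL 3 it was −0.48 (edgeR, adjusted p = 0.52), so that single libraries moved the estimate in both directions.

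Junb, an AP-1 subunit that in muscle is known for holding back atrophy, was at 42.9, 89.5, 130, 91.5 and 109 CPM in CTRL 1 to 5 and at 34.8, 76.0, 31.7, 88.9 and 62.7 CPM in ASO 1 to 5. Of the 5 control libraries, 4 lay above every treated library, and CTRL 1 lay among the treated ones. The means were 92.6 ± 32.3 and 58.8 ± 25.2 CPM (SD, n = 5 per group), with a log2 fold change of −0.65 (SE 0.33, 95% interval −1.36 to 0.05). This did not pass the threshold (edgeR, adjusted p = 0.15), and the two-sided exact permutation p was 0.13. Without CTRL 1 the value was −0.83 with an adjusted p of 0.049 in edgeR's test, and without ASO 3 it was −0.46 with an adjusted p of 0.32.

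Jun and Atf3 hold 0 counts in all 10 libraries. Both have 2 annotated transcripts with identical segments, chr4:94937271-94937770 for Jun and chr1:190902493-190902992 for Atf3, each on the minus strand, so no base of them belongs to a single segment. In the whole table, the 1795 genes without such a base (8.48%) hold 45 counts together, while 68 genes that are fully overlapped only on the opposite strand hold 15495. A level of 0 for Jun and Atf3 is therefore a property of the counting in this table and says nothing of their expression. In the AP-1 family as a whole, 5 of 14 listed genes were tested and 0 were called in either direction. Of all tested genes, 17.5% were called lower and 11.7% higher. Jund, a subunit that is present in resting cells, had a log2 fold change of 0.32 and Fosl2 of 0.33, and neither passed the threshold.

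Egr1, a zinc finger factor that responds strongly to growth factors and contraction, was the called member. It was at 20.8, 91.9, 210, 46.6 and 248 CPM in CTRL 1 to 5 and at 20.3, 24.6, 16.9, 43.0 and 60.4 CPM in ASO 1 to 5. CTRL 2, 3 and 5 lay above every treated library, whereas CTRL 1 was at the level of the lower treated libraries and CTRL 4 was between ASO 4 and ASO 5. On average it was at 123 ± 100 CPM in CTRL and at 33.0 ± 18.3 CPM in treated mice (SD, n = 5 per group). The log2 fold change was −1.90 (SE 0.59, 95% interval −3.18 to −0.62), with an adjusted p of 0.029 in edgeR's quasi-likelihood test, adjusted by Benjamini-Hochberg. By exact permutation of log2(CPM + 1), two-sided, p was 0.087, and 0.30 after Benjamini-Hochberg adjustment over the 7 members tested in this way. The call was kept in 13 of 19 alternative fits. It was lost in limma-voom (−1.54, adjusted p = 0.092) and in edgeR's fits without ASO 1, ASO 2, ASO 3, CTRL 3 or CTRL 5, where adjusted p lay between 0.062 and 0.082. Leaving out CTRL 3 gave −1.62 and leaving out CTRL 5 gave −1.49, so that 0 members were called in either of these fits.

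**Figure D1:**
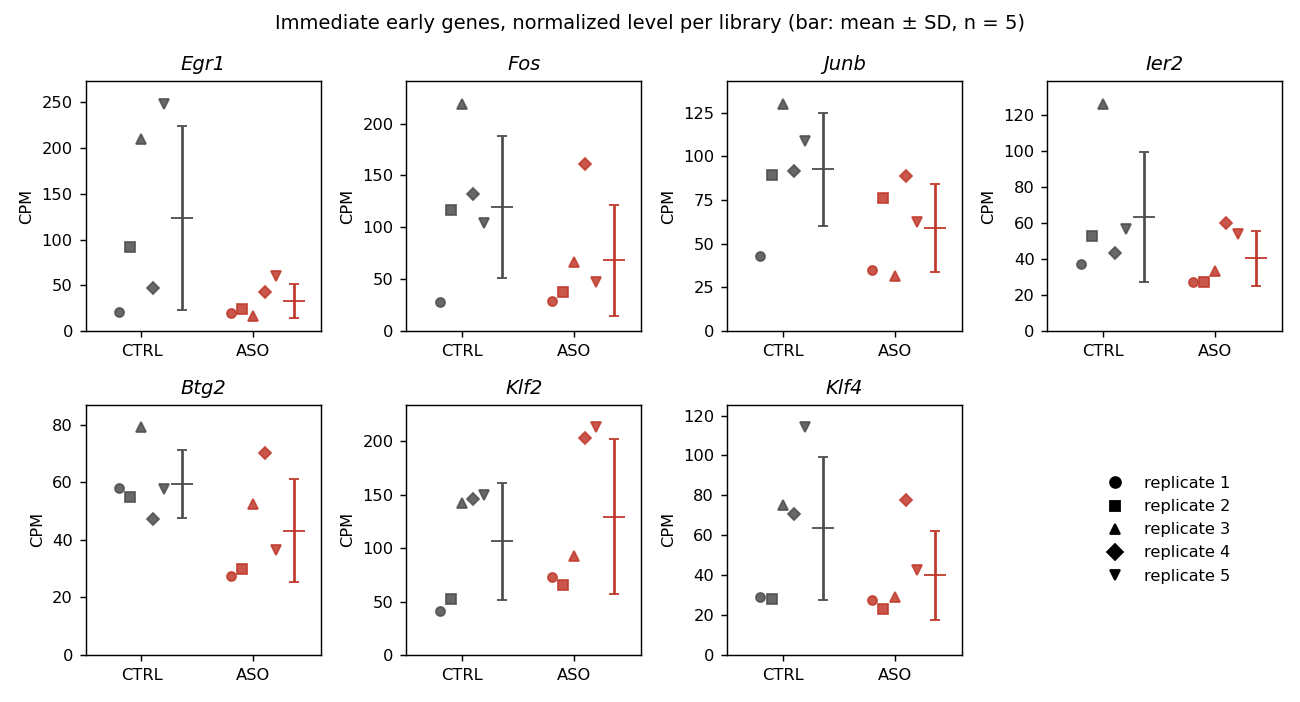
CPM (vertical axis) of the 7 tested immediate early genes in each library of CTRL (grey) and ASO (red), with a symbol for each replicate number and, beside the points, the mean and SD (n = 5 each). The groups overlap in all 7 panels, and Egr1 shows its highest values of 210 and 248 CPM in CTRL 3 and CTRL 5.

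Klf2, a factor that endothelial cells make under blood flow, was at 41.0, 52.2, 142, 146 and 150 CPM in CTRL 1 to 5 and at 72.9, 65.8, 92.2, 203 and 213 CPM in ASO 1 to 5. Each group split into low and high libraries, and the treated values reached above the control values at the top. The means were 106 ± 54.5 and 129 ± 72.5 CPM (SD, n = 5 per group). Its log2 fold change of 0.29 (95% interval −0.65 to 1.23, edgeR, adjusted p = 0.65, two-sided exact permutation p = 0.59) was not past the threshold, and it turned to −0.04 in the fit on the most distal segments. Since Klf2 has 1 segment, its counts were the same in that fit. With a library left out its value lay between 0.05 and 0.48.

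Klf4, a relative of Klf2 that is also present in smooth muscle, macrophages and epithelia, was at 29.2, 28.0, 75.1, 70.8 and 114 CPM in CTRL 1 to 5. In ASO 1 to 5 it was at 27.5, 22.9, 28.8, 77.6 and 42.4 CPM. As for Klf2, CTRL 1 and CTRL 2 were low and the other controls high, and ASO 4 lay among the high controls. The means were 63.4 ± 36.0 and 39.9 ± 22.3 CPM (SD, n = 5 per group), and the log2 fold change was −0.66 (95% interval −1.58 to 0.25, edgeR, adjusted p = 0.26, two-sided exact permutation p = 0.29). It was −1.02 without ASO 4 and −0.34 without CTRL 5, with adjusted p-values of 0.066 and 0.57 in edgeR's test. Of the 14 listed Klf genes 12 were tested, and Klf3 (−0.79, adjusted p = 0.018) and Klf12 (−1.24, adjusted p = 0.028) were the 2 that were lower in edgeR's test. For comparison, 17.5% of all tested genes were lower. The Klf12 call was kept in 9 of 18 alternative fits and that of Klf3 in 18 of 19, being lost on the most distal segments.

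Ier2 was at 37.3, 52.7, 126, 43.1 and 56.7 CPM in CTRL 1 to 5 and at 27.5, 27.2, 33.4, 59.7 and 53.8 CPM in ASO 1 to 5. CTRL 3 stood far above the rest, ASO 4 lay above the other 4 controls, and ASO 5 lay among them. Its log2 fold change was −0.65 (95% interval −1.39 to 0.10, edgeR, adjusted p = 0.17, two-sided exact permutation p = 0.18). Without CTRL 3 it was −0.24 (edgeR, adjusted p = 0.54).

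Btg2 was the steadiest member in CTRL, at 58.0, 55.0, 79.0, 47.2 and 57.8 CPM in CTRL 1 to 5, against 27.5, 29.7, 52.4, 70.1 and 36.3 CPM in ASO 1 to 5. ASO 1, ASO 2 and ASO 5 lay below every control library, and ASO 4 lay above all of them but CTRL 3. The means were 59.4 ± 11.8 and 43.2 ± 17.9 CPM (SD, n = 5 per group). Its log2 fold change was −0.46 (95% interval −1.0 to 0.09, edgeR, adjusted p = 0.19, two-sided exact permutation p = 0.095), and without ASO 4 it was −0.69 with an adjusted p of 0.033 in edgeR's test. Without ASO 1 it was −0.32 (edgeR, adjusted p = 0.36).

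Zfp36, the tristetraprolin gene, has 2 transcripts whose segments on chr7, 28076209 to 28076708 and 28076216 to 28076715 on the minus strand, share all but 7 bases each. Only 22 counts fell on them. ASO 1 to 5 held 4, 3, 2, 3 and 1 counts and CTRL 1 to 5 held 2, 2, 2, 2 and 1, so that all libraries but ASO 1 were at or under the floor of 3 counts. With so few bases of its own in the table, a change in Zfp36 was not detectable. Its relative Zfp36l1 was at 145 ± 14.4 CPM in CTRL and 107 ± 18.3 CPM in the treated mice (SD, n = 5 per group), with a log2 fold change of −0.43 (edgeR, adjusted p = 0.039) that was kept in 8 of 19 alternative fits.

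Read over the 7 tested members, 1 was lower and 0 were higher. Over all tested genes, 1365 (17.5%) were lower and 916 (11.7%) were higher, so the count of members is near the background. The estimate was negative for 6 of 7 members, against 51.8% of all tested genes, and the median log2 fold change was −0.65, against −0.03. The members' CPM did not separate the groups for any of the 7, while the groups did not overlap for 21.4% of all tested genes. Under total counts in place of TMM, 1821 genes were lower and 528 higher and the median of all genes moved to −0.21. Under upper quartile factors, 1207 were lower and 1261 higher. Changes are thus relative to TMM, and Egr1 was called lower under each of these scalings.

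**Figure D2:**
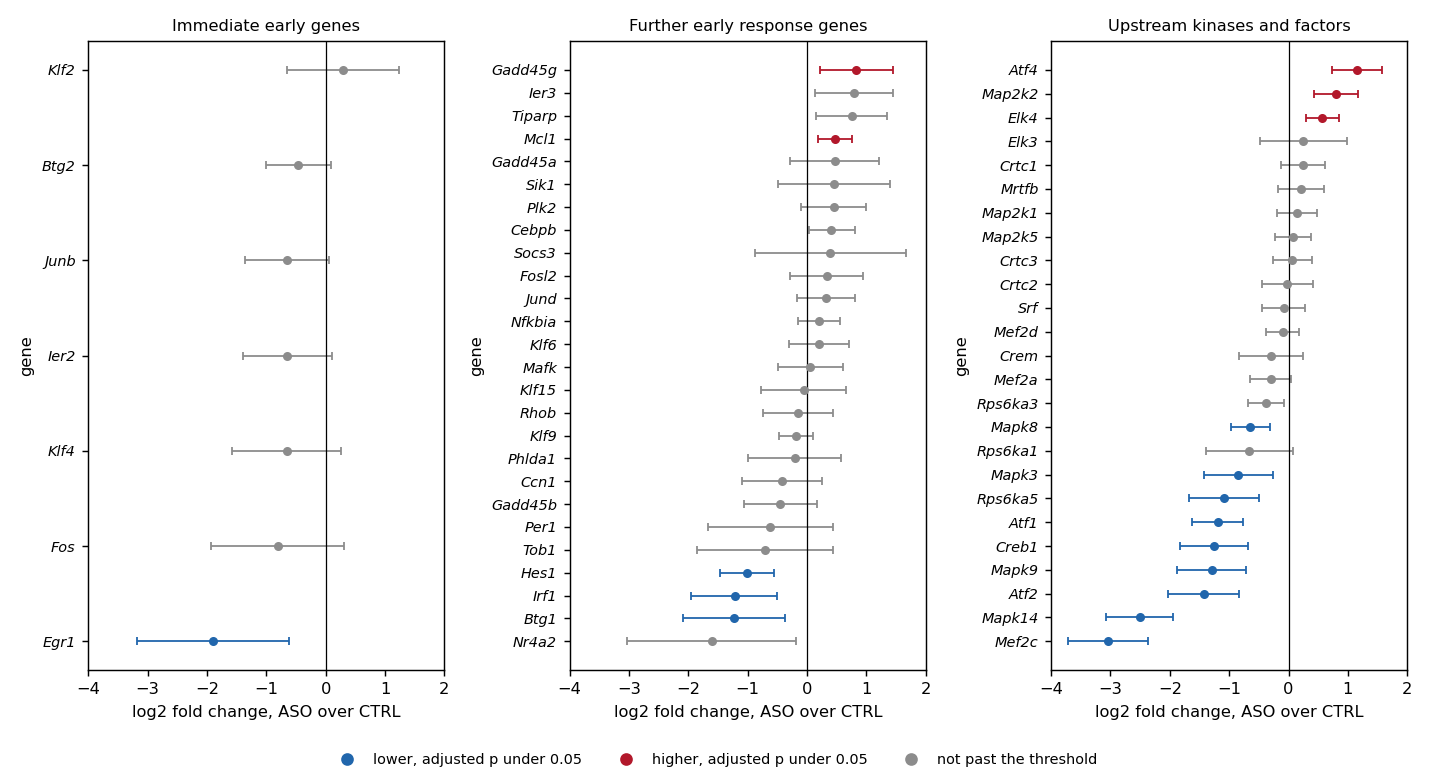
Log2 fold change of ASO over CTRL (horizontal axis) with its 95% interval for the tested immediate early genes, the tested further early response genes and the tested upstream kinases and factors (vertical axis, one gene per line). Blue marks genes that were lower and red genes that were higher at an adjusted p under 0.05; Egr1 at −1.90 is the blue point among the 7 members.

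Since the segments of the 7 members have 500 or 485 bp, their levels can be set beside each other per length. In CTRL the order by mean CPM per kb of segment was Egr1 (247 ± 201), Fos (240 ± 137), Klf2 (212 ± 109), Junb (191 ± 66.4), Klf4 (127 ± 71.9), Ier2 (126 ± 71.9) and Btg2 (119 ± 23.6; SD, n = 5 per group). With the ASO it was Klf2 (259 ± 145), Fos (137 ± 107), Junb (121 ± 51.8), Btg2 (86.4 ± 35.8), Ier2 (80.6 ± 30.7), Klf4 (79.7 ± 44.6) and Egr1 (66.1 ± 36.6; SD, n = 5 per group). Egr1 was thus at the top of the order of means in CTRL and at its foot with the ASO. By the median of CTRL, however, Egr1 (184 CPM per kb) lay below Klf2 (284), Fos (234) and Junb (189). The ranges of neighbours in both orders overlapped between mice. Since all genes were read in the same libraries, this overlap does not decide whether neighbours differed within a library, which was not tested. Klf2 lay above Fos in each of ASO 1 to 5, whereas the other neighbouring pairs changed order between libraries.

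The spread between mice of a group was large for most members. The biological coefficient of variation fitted by edgeR was 61.4% for Egr1, 55.7% for Fos, 47.8% for Klf2, 45.9% for Klf4, 37.8% for Ier2, 36.4% for Junb and 28.3% for Btg2. Of all tested genes, 97.5% had a lower coefficient than Egr1, 96.3% a lower one than Fos and 68.2% a lower one than Btg2. Within CTRL the highest library was 11.9 times the lowest for Egr1 and 7.88 times for Fos, but 1.67 times for Btg2. Within the ASO group these ratios were 3.57, 5.56 and 2.55.

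Some libraries were at an end of the order for most members, and others were not. ASO 4 was the highest treated library for 5 of 7 members, and ASO 5 for Egr1 and Klf2. By comparison, ASO 4 was the highest treated library for 24.2% of all tested genes. In CTRL, replicate 3 was highest for Fos, Junb, Ier2 and Btg2 and replicate 5 for Egr1, Klf2 and Klf4, against 23.6% and 23.4% of all tested genes. CTRL 1 was the lowest control for 5 of 7 members, Klf4 and Btg2 being the exceptions, and for 22.0% of all tested genes. The lowest treated library varied, and was ASO 1 for 2 members, ASO 2 for 3 and ASO 3 for 2. The members share libraries and their scaling, so these shares describe the same 10 mice 7 times over.

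**Figure D3:**
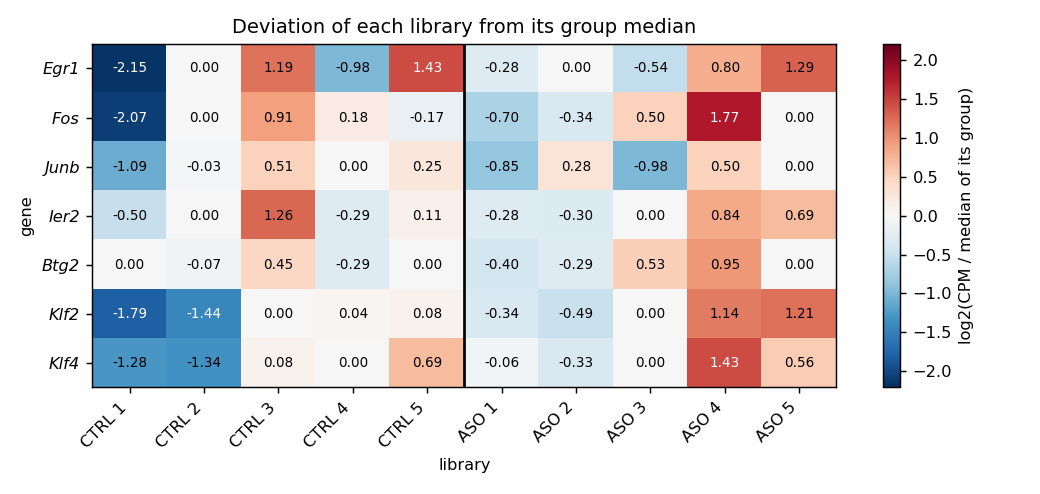
Log2 of the CPM over the median of the library's own group (colour and printed value) for the 7 tested immediate early genes (rows) in the 10 libraries (columns, CTRL left and ASO right of the black line). CTRL 1 is at −2.15 for Egr1 and −2.07 for Fos, and ASO 4 is above 0 for all 7 genes, with 1.77 for Fos.

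Summed levels of cell type markers were high in some of the same libraries and low in others. CTRL 3, where Fos, Junb, Ier2 and Btg2 were highest, also had the highest summed macrophage level, at 1850 CPM against 297 to 691 CPM in the other controls. ASO 4 was the highest treated library for endothelial (1020 CPM), macrophage (622 CPM), fibroblast (475 CPM), smooth muscle (1520 CPM), blood (1710 CPM) and Schwann cell (541 CPM) markers, and the lowest for fiber markers (92600 CPM). CTRL 5, where Egr1 was highest, had a macrophage sum of 633 CPM and an endothelial sum of 592 CPM, both within the range of the other controls. The opposite order was also seen. CTRL 1, the lowest control for most members, had the highest endothelial (724 CPM) and smooth muscle (1210 CPM) sums of its group. ASO 5, where Egr1 and Klf2 were highest among treated libraries, had the lowest macrophage (79.7 CPM), fibroblast (73.1 CPM) and adipocyte (719 CPM) sums of its group. The part of these cell types in the levels of the members was not tested, and in bulk muscle more cells of a type and more RNA per cell cannot be told apart.

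Between the groups, the sum over the 10 fiber markers was 92600 to 149000 CPM with the ASO and 45700 to 87400 CPM in CTRL, without overlap (two-sided exact permutation p = 0.0079, the smallest that 5 against 5 allow). Mb, Tnnt3 and Mylpf among them are listed at 0. These and the other markers at 0 below have only 0 to 53 bases that belong to a single segment, so a 0 cannot be read as absence. Acta1, at 59130 ± 5611 CPM in treated and 39770 ± 9046 CPM in control mice (SD, n = 5 per group), made up the largest part of the fiber sum. It was not called (edgeR, adjusted p = 0.058). The satellite cell sum was 96.1 to 123 CPM against 43.8 to 66.2 CPM (two-sided exact permutation p = 0.0079), with Calcr at 0. Cdh15 made up most of that sum, at 89.6 ± 7.28 CPM in treated and 38.3 ± 8.29 CPM in control mice, whereas Pax7 (8.61 ± 0.695 and 7.60 ± 2.46 CPM) and Vcam1 (8.03 ± 3.50 and 6.60 ± 4.03 CPM; SD, n = 5 per group) were not called, and Myf5 was under the filter. Endothelial markers, with Ramp2 at 0, spanned 427 to 1020 and 437 to 724 CPM (p = 0.29), and macrophage markers, with Adgre1, Cd163 and Aif1 at 0, spanned 79.7 to 622 and 297 to 1850 CPM (p = 0.29; two-sided exact permutation tests). Fibroblast markers, with Dcn and Ly6a at 0, spanned 73.1 to 475 CPM with the ASO and 250 to 494 CPM in CTRL (two-sided exact permutation p = 0.10). Smooth muscle, adipocyte, blood and Schwann cell sums also overlapped, with two-sided exact permutation p-values of 0.51, 0.85, 0.44 and 0.87. Called markers were Lum (−1.72), C1qc (−1.61) and Mrc1 (−1.51), which were lower, and Actn3 (1.79), Cdh15 (1.23), Atp2a1 (1.08), Acta2 (0.96) and Ckm (0.93), which were higher on the log2 scale in edgeR's test. Of these, C1qc kept its call in 7 of 19 alternative fits and Mrc1 and Acta2 in 10 of 19 each. Ckm kept its call in 18 of 19, and lost it on the most distal segments, at −0.07 (edgeR, adjusted p = 0.87). For Ckm, 97.6% of the counts came from a segment 1257 bp before its last one.

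Of 55 further genes of the early response, 26 were tested, 2 were higher and 3 were lower, with a median log2 fold change of 0.13. The shares over all tested genes were 11.7% higher and 17.5% lower, so this list gave no excess of calls. Hes1, a repressor in the Notch pathway, fell from 78.8 ± 14.3 to 39.1 ± 10.5 CPM (SD, n = 5 per group), a log2 fold change of −1.01 (edgeR, adjusted p = 0.0037) that was kept in 19 of 19 alternative fits. Irf1, an interferon-responsive factor, was lower by −1.22 on the log2 scale (edgeR, adjusted p = 0.016), and Btg1, the paralog of Btg2, by −1.23 (edgeR, adjusted p = 0.033, kept in 11 of 18 alternative fits). For Btg1, 98.9% of the counts came from a segment that lies 4141 bp before its last one, and all counts of Irf1 came from a segment 4289 bp before its last one. Mcl1, which protects cells from apoptosis, rose from 275 ± 18.8 to 381 ± 48.9 CPM (SD, n = 5 per group; log2 fold change 0.47, edgeR, adjusted p = 0.015). Gadd45g, a stress-induced gene, rose from 325 ± 112 to 580 ± 182 CPM (SD, n = 5 per group; 0.83, edgeR, adjusted p = 0.044), a call that was kept in 9 of 19 alternative fits. Under total counts in place of TMM neither Mcl1 nor Gadd45g was called.

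The 29 further genes that were not tested include 11 with 0 counts in every library, among them Nr4a1, Dusp1, Myc, Egr2 and Maff. Nr4a1 and Egr2 have 0 bases that belong to a single segment, Dusp1 1, Maff 4 and Myc 24. As for Jun and Atf3, their 0 cannot be read as a lack of expression. Egr4, with 500 such bases, also held 0 counts. Among the untested genes with counts under the filter, some were far lower with the ASO in fits without the filter, and these were chosen after their values were seen. Fosb, the relative of Fos, held 1, 3, 19, 4 and 27 counts in CTRL 1 to 5 and 0, 1, 2, 1 and 1 counts in ASO 1 to 5. Egr3, the relative of Egr1, held 1, 4, 18, 6 and 46 counts against 1, 2, 0, 6 and 2. For both, as for Egr1, CTRL 3 and CTRL 5 were the high libraries and CTRL 1 was at the level of the treated mice. Dusp4, a phosphatase of MAP kinases, held 7, 10, 28, 6 and 10 counts in CTRL 1 to 5 against 1, 2, 3, 2 and 0 in ASO 1 to 5, without overlap. Csrnp1, a nuclear protein, held 6, 4, 6, 8 and 14 counts against 3, 3, 1, 4 and 0.

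**Figure D4:**
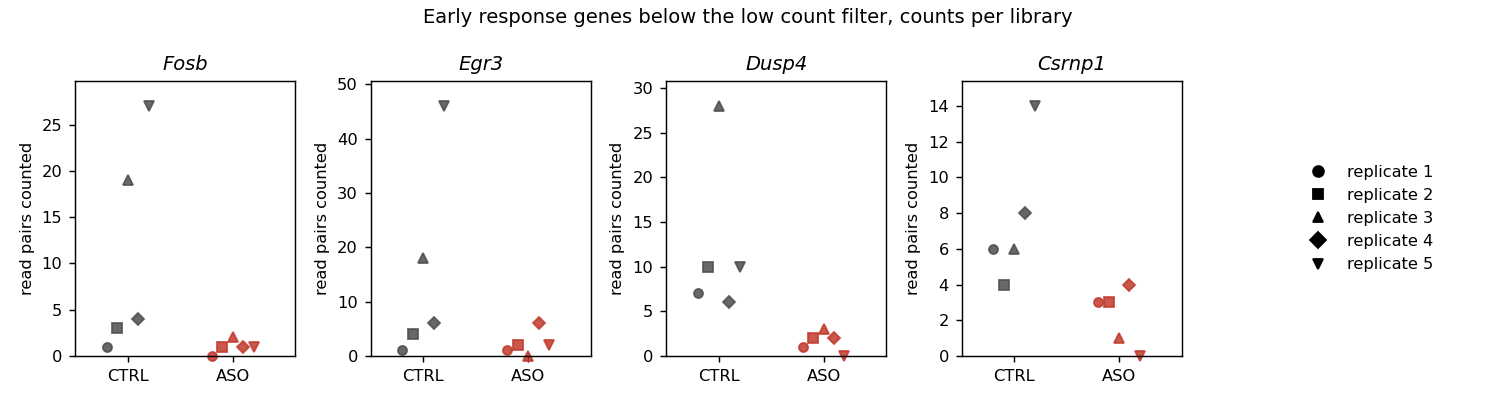
Counts (vertical axis, read pairs) of Fosb, Egr3, Dusp4 and Csrnp1, which were under the filter on low counts, in each library of CTRL (grey) and ASO (red), with a symbol for each replicate number. Dusp4 separates the groups, with 6 to 28 counts in CTRL and 0 to 3 with the ASO, although the treated libraries were deeper.

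In edgeR without the filter, Fosb (log2 fold change −3.49, adjusted p = 0.013), Egr3 (−2.94, adjusted p = 0.033) and Dusp4 (−3.01, adjusted p = 0.0037) were lower, and Csrnp1 (−1.96, adjusted p = 0.052) was just short of the threshold. In DESeq2 all 4 were lower, with log2 fold changes of −3.66, −3.02, −3.11 and −2.0 and adjusted p-values of 0.0040, 0.013, 0.00051 and 0.031. The further early response genes then held 6 lower genes of 44 without the filter and 7 of 44 in DESeq2. Over all genes with a value, 9.77% were lower without the filter and 10.4% of 14120 in DESeq2, or 14.2% of the 10379 to which DESeq2 gave an adjusted p. The remaining genes under the filter gave no call in either of these fits. With each library left out in turn and no filter, fits that were chosen after seeing the data, Fosb and Dusp4 were lower in 10 of 10, with edgeR's adjusted p from 0.0039 to 0.047 for Fosb and from 0.0032 to 0.014 for Dusp4. Csrnp1 was lower in 1 of these 10 fits and Egr3 in 5. Egr3 was not past the threshold without ASO 1, ASO 2, ASO 3, ASO 5 or CTRL 5, and without CTRL 5 its log2 fold change was −1.84 (edgeR, adjusted p = 0.16).

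Of 31 genes upstream of the immediate early genes, 25 were tested, 9 were lower and 3 were higher, with a median log2 fold change of −0.30. Over all tested genes, 17.5% were lower and 11.7% higher. Srf itself was at −0.08 (edgeR, adjusted p = 0.76). Lower were the kinase genes Mapk14 (p38α, −2.51), Mapk9 (−1.29), Rps6ka5 (Msk1, −1.09), Mapk3 (Erk1, −0.85, kept in 10 of 18 alternative fits) and Mapk8 (−0.65), and the factor genes Mef2c (−3.04), Atf2 (−1.43), Creb1 (−1.26) and Atf1 (−1.19). Atf4 (1.15), Map2k2 (Mek2, 0.80) and Elk4 (0.57), an Srf partner, were higher in edgeR's quasi-likelihood test, adjusted by Benjamini-Hochberg. For 7 of the 9 lower genes, less than 50% of the counts lie on the most distal segment. On the most distal segments alone, 3 of the 9 had a value and 2 were lower. In this they differ from the 7 tested immediate early genes, all of whose counts lie on the most distal segment. Of the 3 higher genes, 1 had less than 50% of its counts on that segment, namely Map2k2 with 0.054%. On the most distal segments alone, 2 of these 3 had a value and 1, Atf4, was higher.

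Among 32 genes for proteins that bind AU-rich elements or shorten and decap mRNAs, 25 were tested, 1 was higher and 2 were lower, with a median log2 fold change of −0.02. Here too there was no excess over the 11.7% higher and 17.5% lower of all tested genes. Mapkapk2, the kinase that acts on tristetraprolin, rose from 375 ± 96.1 to 727 ± 119 CPM (SD, n = 5 per group; log2 fold change 0.95, edgeR, adjusted p = 0.0029). Cnot2, a subunit of the deadenylase complex that tristetraprolin and Btg2 recruit, fell from 68.8 ± 9.34 to 33.7 ± 4.18 CPM (SD, n = 5 per group; −1.03, edgeR, adjusted p = 0.00047). The other lower gene was Zfp36l1, described above. Of the 31 called genes named here from the lists that passed the filter, 8 were no longer called when CTRL 3 was left out, namely Egr1, Gadd45g, Btg1, Mapk3, Zfp36l1, Mrc1, C1qc and Acta2. These losses were not particular to CTRL 3, since each of these calls was also lost without some other library. Egr1, Gadd45g, Mapk3, Zfp36l1, Mrc1 and C1qc, for example, were also lost without ASO 1 and without CTRL 5.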

How the data were processed

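Counts from the GAS of 5 ASO-treated and 5 CTRL mice were used, and 4 further columns of single libraries in that file were left out. The authors trimmed reads with fastp, aligned read pairs to GRCm39 with STAR and counted them with featureCounts on the last 500 bp of 3′UTRs (Gencode M25 per their methods), and they deposited these counts without normalization. The strand option of the counting is not given in the sources used here. Of 52423 segments, 52361 matched GENCODE M39 on GRCm39 by transcript, chromosome and strand. The rest hold 0.0197% of counts and were kept as they are. A pair that falls on bases shared by several segments of the same strand is not in the counts, which sets genes such as Jun and Atf3 to 0. Because only 3′ ends were counted, a change in the site of polyadenylation can change a count.

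Segments were summed per gene and tested with edgeR 4.0.16 in R 4.3.3 (TMM, filterByExpr by group, quasi-likelihood test, Benjamini-Hochberg adjustment over 7819 genes, threshold 0.05). Single genes and marker sums were also compared by exact permutation over the 252 labellings, two-sided, of log2(CPM + 1) for genes. Alternatives were DESeq2 1.42.0, limma-voom (limma 3.58.1), other scalings, no filter, a replicate block, each library left out, the most distal segment only and libraries drawn down to the smallest total. Some lists share genes, and 1 gene of the upstream list is not reported here. The scripts were tested on simulated data. Library totals of 1606909 to 2632560 counts, taken without TMM scaling, put 3 counts, the floor, at 1.14 to 1.87 CPM for counting error only. The named genes are all members, up to 8 called genes per pathway list and up to 4 per marker list, and others are marked in the text. Exceptions are Elk4, Mapk8, Rps6ka5, Mapk3, Srf, Jund, Fosl2, Acta1, Pax7, Vcam1, Myf5 and the genes listed at 0, which were also named after their values were seen. Members and lists were chosen with earlier results of these data known, so they are no independent evidence. The labels do not say more of the replicates than their numbers, taken here as separate mice, so p-values measure only the spread between these samples, and no 2 libraries were alike within sampling noise.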

Additional observations from a re-analysis of the deposited data

Results flagged for a closer look

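The values of the 7 tested members were examined for a single library far from the other 4 of its group, 14 groups in all, by Dixon's ratio of the gap to the range with a critical value of 0.71. Chance alone flags about 1 in 20 such groups. Fos in ASO 4, at 161 CPM, had a ratio of 0.714. Ier2 in CTRL 3, at 126 CPM, had a ratio of 0.781. Leaving out ASO 4 brought Fos to a log2 fold change of −1.40 (edgeR, adjusted p = 0.037), whereas Ier2 was not past the threshold in any of the 19 alternative fits (adjusted p from 0.10 to 0.54).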

How the results depend on the processing

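Fos, Junb, Egr1, Ier2, Btg2 and Klf4 were lower in estimate in all 19 alternative fits, and Klf2 was reversed once, at −0.04 on the most distal segments. The number of members called lower went from 1 to 0 in limma-voom, and from 0 to 3 over the fits with a library left out (3 without ASO 4, 2 without CTRL 1). The number of further early response genes called higher went from 2 to 0 with total counts, on the most distal segments and under a replicate block, to 5 with upper quartile factors, and from 1 to 3 over the fits with a library left out. Those called lower went from 3 to 6 without the filter and to 7 in DESeq2, and lay from 2 to 4 over the fits with a library left out, or from 3 to 8 where the filter was left out as well, which was chosen after seeing the data. Over all genes, 916 were higher and 1365 lower, against 528 higher with total counts, and 231 higher and 337 lower on the most distal segments, where 5093 genes were tested. The cause was not tested, except that fewer genes enter that last fit. The replicate numbers did not pair the mice (correlations of same-numbered deviations from −0.427 to 0.164, and no same-numbered mice were each other's best match). Under that block Egr1 was at −1.57 with an adjusted p of 0.046 in edgeR's test. With 5 mice a group, the intervals of the members not called still include changes of over 1 on the log2 scale for Fos, Junb, Ier2, Klf2 and Klf4.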
